A study of Glycine max and Zea mays with 6 samples.

Results

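SWEET genes encode sugar transporters of the cell membrane and of inner membranes, and 43 protein-coding genes of soybean (Glycine max) whose symbols start with SWEET are described here by the histone marks called at them in leaf. Membership was set by symbol, from the RefSeq gene table of the assembly Glycine_max_v4.0, on chromosomes 1 to 20, out of 46816 protein-coding genes. Earlier results of these data were known when the members were chosen. The marks came from chromatin immunoprecipitation and sequencing (ChIP-seq) of William82 plants grown for about 10 days at 25 °C under 16 h of light and 8 h of dark, untreated, of which the 2nd and 3rd leaves were taken. On histone H3, the antibodies were against trimethylated lysine 4 (H3K4me3), acetylated lysine 56 (H3K56ac) and trimethylated lysine 36 (H3K36me3), with 1 library for each and therefore no replicates. The sample labels give H3K4me3 where the series text gives H3K4me1 for soybean, and the labels were followed. Maize ear and the inputs, which complete the 6 samples of the series, were not used here. The series carries the aim of better genome annotation in its title.

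SWEET proteins let sugars pass along their own concentration gradient, in either direction, and are known in plants as a route by which sugars leave cells. In Arabidopsis, some family members export sucrose from leaf cells so that it can be loaded into the phloem, and others serve nectaries, seeds or storage of sugars in the vacuole; several family members in rice and other plants are switched on by pathogens. In plants, H3K4me3 typically sits where transcription of a gene begins, H3K56ac is found near active promoters, and H3K36me3 spreads over the body of genes while they are transcribed. A called peak is not a measure of transcription, and RNA was not analysed here. A leaf sample also mixes cell types, so a mark present in few cells of the leaf, such as those of the phloem, may not be called.

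The authors' lists held 51233 H3K4me3 peaks, 60550 H3K56ac peaks and 32245 H3K36me3 regions, with positions but no heights or read counts. Their depth is unknown, and where no peak lies, all that can be said is that none was called. No source used here names the build of these lists, so their fit to the gene table was checked in 5 Mb around each member. H3K4me3 midpoints fell within 500 bp of a gene end more often in place than after any shift by 2, 5, 20 or 100 kb for 42 of the 43 members, the exception being SWEET38, where the unshifted and the highest shifted share were both 21.6% of 37 peaks. The margin was also small at SWEET37, with 25% in place and at most 22.5% after a shift, of 40 peaks. Windows of members that lie close together, such as SWEET37 and SWEET38, overlap, so the 43 windows are not separate checks. Marker genes were counted with H3K4me3 and H3K56ac within 1 kb of a gene end and H3K36me3 in the body. Of 6 genes matched as leaf markers, all had H3K4me3 and H3K56ac and 5 had H3K36me3. Rubisco small subunit gene RBCS1 and chlorophyll-binding protein gene CAB3 were among them. In contrast, 9 seed genes (glycinin genes, lipoxygenase genes and SBP65) had H3K4me3 at 6 and the other marks at 0. The glycinin genes GY1 and GY3, not among those 6, had 246 and 678 bp of H3K4me3 over 1 kb from both ends. Of all protein-coding genes, 73.1% had H3K4me3, 69.5% had H3K56ac and 51.1% had H3K36me3. Of 25 nodule-related genes, 1 had all 3 marks and 15 had none, against 49.3% and 22.2% of all protein-coding genes. They were matched partly through synonyms and include a sucrose synthase and uricases. The table gives no strand, so the ends of a gene are called its lower and its higher end by coordinate, and which of them is the start of transcription is unknown.

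At the gene ends and in the body, called marks were infrequent at SWEET genes in leaf. H3K4me3 lay within 1 kb of an end at 16 of 43 members (37.2%, exact 95% interval 23.0 to 53.3), against 73.1% of all protein-coding genes. H3K56ac lay within 1 kb of an end at 14 members (32.6%, interval 19.1 to 48.5), against 69.5% of all genes. H3K36me3 touched the body of 4 members (9.30%, interval 2.59 to 22.1), against 51.1% of all genes. The same 4 members, SWEET29, SWEET31, SWEET34 and SWEET42, had all 3 marks, which 49.3% of all genes had. None of the marks was called by these rules at 24 members (55.8%, interval 39.9 to 70.9), against 22.2% of all genes. Counting narrow marks anywhere in the gene or within 1 kb of it, 20 members (46.5%) had no mark, against 21.2% of all genes. Counting overlap with the gene itself and not its surroundings, no mark touched 23 members (53.5%), against 23.2% of all genes. The intervals cover counting error only, and members of a gene family are related by descent rather than independent.

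The gaps were also present against genes of like length. Members were 1331 to 14687 bp long with a median of 2818 bp, and the median of all protein-coding genes was 3351 bp. Of the 37783 protein-coding genes within the range of the members' lengths, 78.9% had H3K4me3, 75.9% had H3K56ac, 57.8% had H3K36me3, 55.9% had all 3 marks and 16.5% had none. With the share of each length decile of all genes applied to the members' own lengths, 32.2 members would have H3K4me3, 30.3 would have H3K56ac, 21.3 would have H3K36me3, 20.6 would have all 3 marks and 8.8 would have none. In the 23 members between 2034 and 3414 bp, the middle of the family's lengths, 11 had H3K4me3, 8 had H3K56ac, 3 had H3K36me3, 3 had all 3 marks and 11 had none. Among the 10598 protein-coding genes of those lengths the shares were 75.1%, 70.5%, 49.0%, 47.6% and 20.3%, where the members' shares were 47.8%, 34.8%, 13.0%, 13.0% and 47.8%. Within the family, a mark was called at 13 of the 22 members of median length or longer and at 6 of the 21 shorter ones. All protein-coding genes were not split at that length, so whether this difference is particular to the family is unknown.

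**Figure D1:**
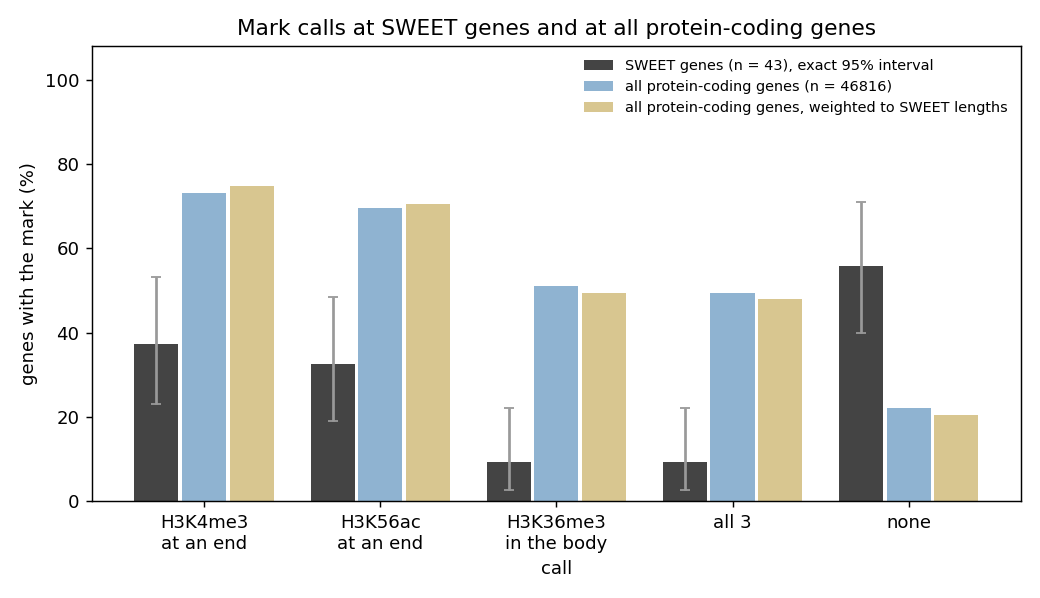
Share of genes with each call, in percent, for the 43 SWEET genes (dark bars, with exact 95% intervals), for all 46816 protein-coding genes (blue bars) and for all protein-coding genes weighted to the length deciles of the SWEET genes (sand bars). The SWEET bars stand at 37.2%, 32.6%, 9.30% and 9.30% for the marks and at 55.8% for no mark, where all genes stand at 73.1%, 69.5%, 51.1%, 49.3% and 22.2%.

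The 4 members with all 3 marks were of similar length, between 2894 and 3472 bp, and differed in how much of the gene H3K36me3 covered. SWEET34 had 98.7% of its 3243 bp under a single H3K36me3 region at Gm13:36140801-36144000. SWEET29 had 85.1% of its 3472 bp under the region at Gm12:40833801-40836800. SWEET42 had 48.4% of its 2894 bp under H3K36me3, and SWEET31 had 41.0% of its 3414 bp. In both of these the mark covered under 50% of the gene, in regions of 1400 bp each at Gm15:33762401-33763800 and Gm13:10831401-10832800.

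In SWEET29 the narrow marks sat at the lower end. A single H3K4me3 peak of 1689 bp (Gm12:40833854-40835542) began 7 bp inside that end, and H3K56ac lay under it in peaks of 349 and 905 bp. The H3K36me3 region began 46 bp outside the same end and stopped 518 bp short of the higher end. All 3 marks thus started together, and H3K36me3 ran on past the end of H3K4me3.

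In the other fully marked members the narrow marks lay towards the higher end. SWEET34 had H3K4me3 peaks of 894 and 378 bp, each overlapped by an H3K56ac peak, of 700 and 374 bp. The peaks nearer the end ran past it, by 86 bp for H3K4me3 (Gm13:36143712-36144089) and by 94 bp for H3K56ac. SWEET42 had an H3K4me3 peak of 916 bp (Gm15:33762961-33763876) ending 268 bp inside the higher end, and an H3K56ac peak of 501 bp ending 259 bp inside it. None of these peaks overlapped another annotated gene, although LOC100789939 lies 0.127 kb from SWEET42.

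SWEET31 had the most H3K4me3 of the family, 2074 bp over the gene and 1 kb either side, and 2520 bp of H3K56ac. Its H3K4me3 peak at Gm13:10830894-10832921, 2028 bp long, ended 84 bp inside the higher end, and the H3K56ac peak there was 2286 bp long. A further pair of peaks lay outside the gene beyond the lower end, with H3K4me3 over 2032 bp at Gm13:10826606-10828637 and H3K56ac over 2088 bp at Gm13:10826738-10828825. Those peaks ended 955 and 767 bp from the gene and overlapped no annotated gene. The lncRNA gene LOC100776051, 1.41 kb away, was the nearest annotated gene to SWEET31, beyond its higher end, and the nearest coding gene was 8.36 kb away.

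**Figure D2:**
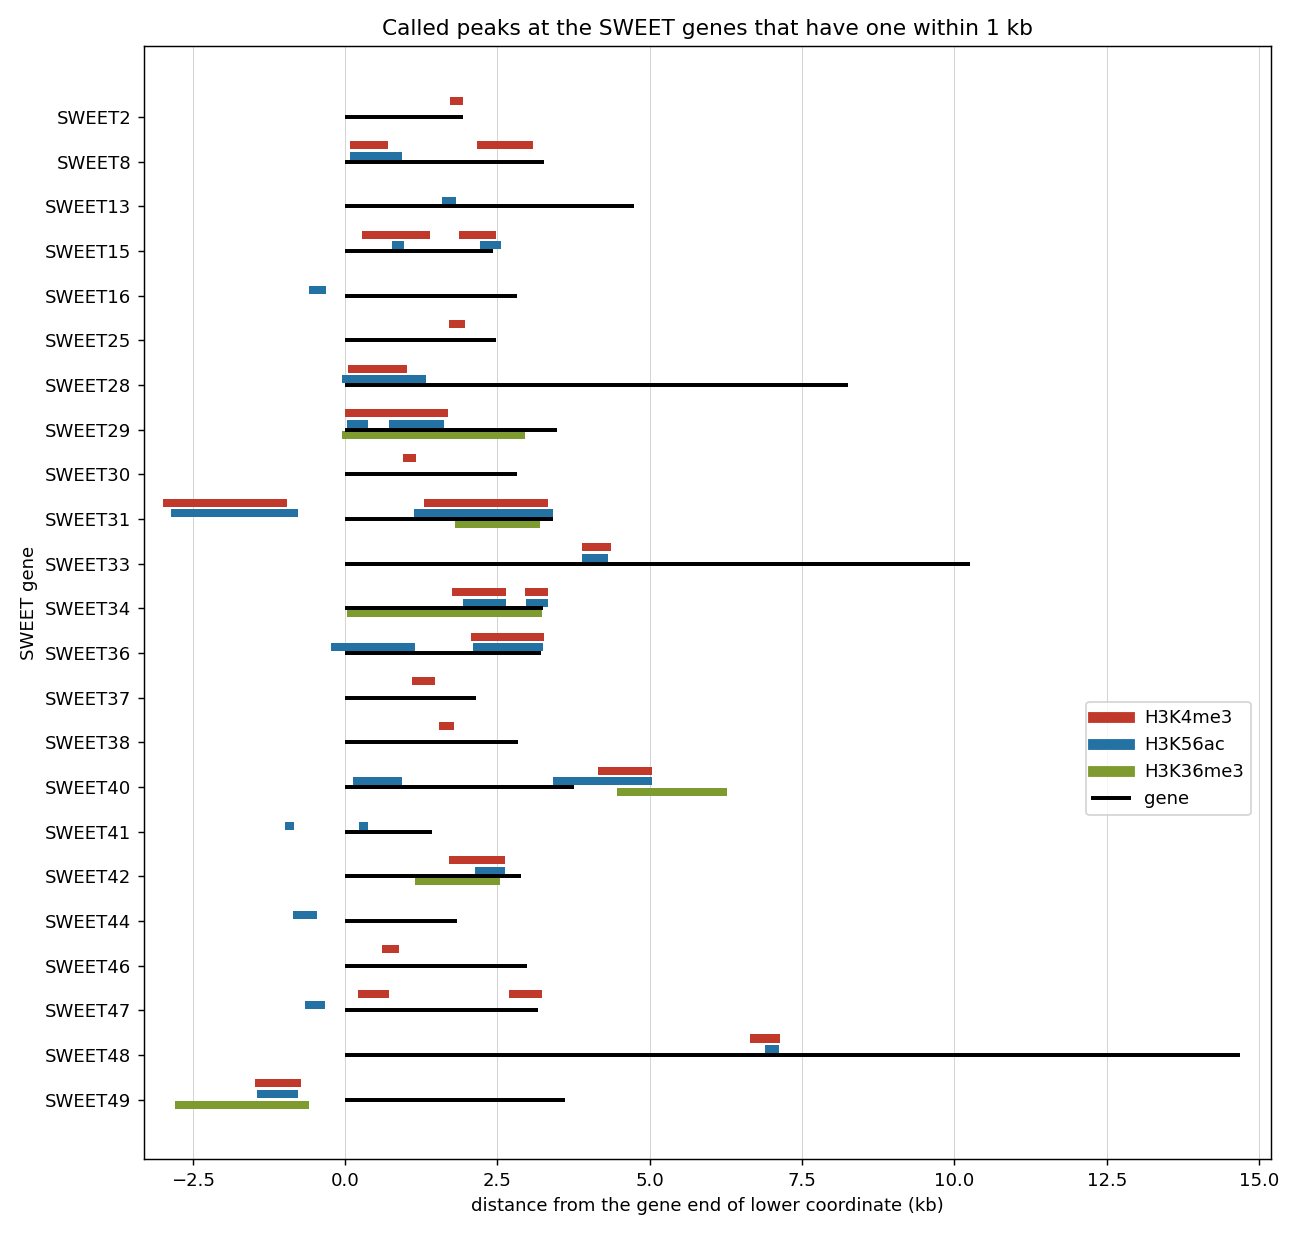
Called peaks at the 23 SWEET genes that have a peak in the gene or within 1 kb of it, drawn by distance in kb from the gene end of lower coordinate. Black lines are genes and coloured bars are H3K4me3 (red, above), H3K56ac (blue, middle) and H3K36me3 (green, below); SWEET29, SWEET31, SWEET34 and SWEET42 have all 3 over the gene, while the green bars beside SWEET40 and SWEET49 lie outside those genes.

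H3K4me3 and H3K56ac without H3K36me3 in the body were called at 7 members: SWEET8, SWEET15, SWEET28, SWEET36, SWEET40, SWEET47 and SWEET49. This class held 16.3% of the members and 16.3% of all protein-coding genes. SWEET28, of 8262 bp, had both marks at its lower end, H3K4me3 for 971 bp and H3K56ac for 1379 bp, and nothing called in the remaining length. SWEET36 had 1193 bp of H3K4me3 at its higher end and 2539 bp of H3K56ac, the most in the family, split into peaks of 1387 bp over the lower end and 1152 bp over the higher end. The nearest H3K36me3 region to SWEET36 was 277 kb away, and 4 coding genes lay within 100 kb of it.

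H3K4me3 at both ends, within 500 bp, was seen at SWEET8, SWEET15 and SWEET47. They are 6.98% of the members. The share of all protein-coding genes is not given here, so whether this is usual is unknown. SWEET8 had 1539 bp of H3K4me3 in peaks of 632 and 907 bp and a single H3K56ac peak of 851 bp, at its lower end. SWEET15 had 1711 bp of H3K4me3, in peaks of 1108 and 603 bp, with shorter H3K56ac peaks of 195 and 344 bp inside or across them. SWEET47 had H3K4me3 peaks of 509 and 553 bp, neither of them with H3K56ac, whose peak of 328 bp lay 325 bp outside the lower end. In these 3 genes H3K4me3 was thus the more widespread of the narrow marks.

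At SWEET40 and SWEET49 some peaks also lay over a neighbouring gene. The H3K4me3 peak of SWEET40 lay 0.402 kb outside its higher end and overlapped another annotated gene; the misc_RNA gene LOC102664029 lies 0.328 kb from SWEET40. SWEET40 also had 2141 bp of H3K56ac, of which a peak of 797 bp lay inside its lower end and touched no other gene. All peaks near SWEET49 were outside it, 0.585 to 0.773 kb from its lower end, and overlapped another gene, where the nearest, LOC100813255 at 0.854 kb, had all 3 marks. With peaks that overlap another gene left out, 14 members had H3K4me3, 13 had H3K56ac and 25 had no mark (32.6%, 30.2% and 58.1%), against 69.1%, 65.6% and 25.8% of all protein-coding genes.

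H3K4me3 alone was called at SWEET2, SWEET25, SWEET30, SWEET37 and SWEET46, which is 11.6% of members, against 6.76% of all genes. These were short peaks. SWEET2 had 211 bp, ending 8 bp inside its higher end, SWEET25 had 261 bp, SWEET30 224 bp, SWEET37 381 bp and SWEET46 279 bp. The median length in the whole H3K4me3 list was 860 bp on the 20 chromosomes. Across the family the 8 H3K4me3 peaks in the 7 members whose body had no H3K56ac were 211 to 553 bp long with a median of 270 bp, and the 13 in the 10 members with H3K56ac in the body were 378 to 2028 bp long with a median of 907 bp. No such split was made for all protein-coding genes.

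Some H3K4me3 peaks were in the interior of the gene. H3K4me3 touched 17 members, and at 6 of them (35.3%, interval 14.2 to 61.7) it was not within 500 bp of either end, against 5.45% of the protein-coding genes that H3K4me3 touched. Counted over all genes, these were 14.0% of the members and 3.96% of protein-coding genes. The 6 were SWEET30, SWEET33, SWEET37, SWEET38, SWEET46 and SWEET48. In the long genes SWEET33 (10262 bp) and SWEET48 (14687 bp) the interior peak carried both narrow marks. SWEET33 had H3K4me3 at Gm13:27788512-27788978 with H3K56ac edges 8 and 38 bp away from its own, 3896 bp from the lower end. SWEET48 had 492 bp of H3K4me3 and 230 bp of H3K56ac, whose upper edges were 3 bp apart, 6641 bp or more from the lower end. SWEET38 had 246 bp of H3K4me3 and no other mark, in the window where the fit of the lists to the gene table was not shown. SWEET37 had 381 bp, in the window where that fit was shown by a small margin. How well these long gene models match the transcribed units was not tested.

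H3K56ac alone was called at SWEET16, SWEET41 and SWEET44, which is 6.98% of members against 3.61% of all genes. In SWEET16, which the table also names N3, a peak of 271 bp lay 318 bp outside the lower end. In SWEET44 a peak of 397 bp lay 460 bp outside the lower end, with LOC100812487 at 0.309 kb from the gene. SWEET41, of 1433 bp, had peaks of 148 bp outside and 157 bp inside its lower end. None of these peaks overlapped another annotated gene. SWEET13 had a single H3K56ac peak of 237 bp, 1591 bp inside the gene, and is among the 24 members without a mark by the rule on ends.

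No peak of any mark lay in the gene or within 1 kb at 20 members. They include SWEET39, known for its effect on oil and protein content of soybean seeds, which is 1751 bp long with its nearest H3K4me3 4.35 kb away and LOC100808502 4.06 kb away as nearest gene. SWEET24, its known duplicate, is 2125 bp long and had its nearest H3K4me3 at 5.28 kb, with the transcription factor gene BZIP81 at 5.73 kb, which had all 3 marks. The roles of the other unmarked members in soybean are not described here, and they are given by position. SWEET50, of 9792 bp, was the most remote, with the nearest H3K4me3 and H3K56ac peaks 32.5 kb away, the nearest H3K36me3 region 443 kb away, LOC100818744 as nearest gene at 32.0 kb and 2 coding genes within 100 kb.

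Among the other unmarked genes on chromosomes 2 to 5, SWEET1 (1838 bp) had the pseudogene LOC100779333 at 12.7 kb as nearest annotated gene. SWEET4 (2832 bp) and SWEET5 (2912 bp) were nearest to each other at 7.70 kb. SWEET7 (1331 bp) had LOC100775278 at 7.31 kb, SWEET9 (12296 bp) had LOC100807921 at 1.17 kb, SWEET10 (2544 bp) had the pseudogene LOC121174865 at 2.19 kb and SWEET11 (2541 bp) had LOC100787235 at 9.56 kb. SWEET9 is thus a long gene with no peak in it or at its ends, although LOC100807921 had all 3 marks.

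On chromosomes 6 and 8, SWEET14 (1767 bp) had LOC100808653 at 9.24 kb and SWEET17 (2776 bp) had LOC100811500 at 6.96 kb. SWEET20 (2529 bp) and SWEET21 (2508 bp) were nearest to each other at 7.42 kb, and SWEET26 (1933 bp) had LOC100305422 at 3.14 kb. SWEET13 (4738 bp), with its interior H3K56ac, had LOC100802813 at 8.05 kb. LOC100811500 and LOC100305422 had all 3 marks, so unmarked members can stand beside fully marked genes.

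On the remaining chromosomes, SWEET32 (2034 bp) had LOC100813129 at 10.4 kb, SWEET43 (1760 bp) had LOC100787869 at 2.44 kb and SWEET45 (1872 bp) had the pseudogene LOC100778810 at 1.89 kb. SWEET51 (2101 bp) had LOC113000740 at 1.98 kb, and SWEET52 (4406 bp) had the pseudogene LOC121174266 at 0.027 kb and the ammonium transporter gene AMT1.1 at 2.67 kb. The members whose peaks were interior alone had the lncRNA gene LOC106795492 at 4.73 kb (SWEET33), LOC121173418 at 6.95 kb (SWEET38) and SWEET47 at 2.33 kb (SWEET48).

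Over the 20 members with no peak, the nearest H3K4me3 was 1.30 to 32.5 kb from the gene with a median of 5.27 kb, and at 9 of them it was within 5 kb. The nearest H3K56ac was 2.35 to 32.5 kb away with a median of 7.33 kb, and the nearest H3K36me3 region 2.09 to 443 kb away with a median of 12 kb. For genes that a mark did not touch, the median distance was close to that of all genes in the same state: 5.95 kb at 26 members and 7.53 kb at all genes for H3K4me3, 6.29 and 6.85 kb for H3K56ac, and 11.5 and 10.0 kb for H3K36me3. At the far end, 5 of all 43 members (11.6%) were over 100 kb from any H3K36me3 region. Of all 46816 protein-coding genes, 1990 (4.25%) were that far. Unlike the medians, these shares include the genes that H3K36me3 touched. It did not touch 39 members and 22881 of all genes, so the shares differ partly because it touched few members. The 5 members were SWEET36, SWEET37, SWEET38, SWEET50 and SWEET52, of which SWEET36, SWEET37 and SWEET38 lie on chromosome 14 and carried H3K4me3 in the gene.

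**Figure D3:**
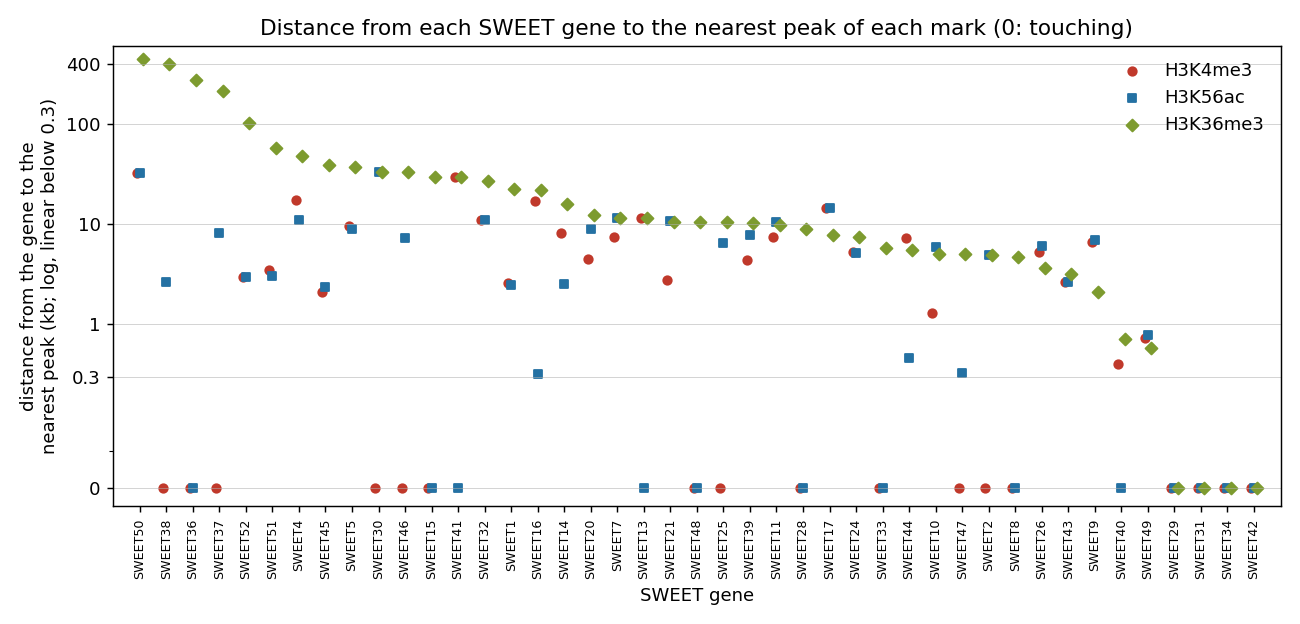
Distance in kb from each of the 43 SWEET genes to the nearest H3K4me3 peak (red circles), H3K56ac peak (blue squares) and H3K36me3 region (green diamonds), on an axis that is logarithmic above 0.3 kb and linear below, with 0 for a peak that touches the gene. Genes are ordered by distance to H3K36me3, from SWEET50 at 443 kb to the 4 genes at 0.

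Where SWEET genes had narrow marks, the marks overlapped in part. Of the 24 H3K4me3 peaks in members or within 1 kb, 15 overlapped an H3K56ac peak (62.5%, interval 40.6 to 81.2), against 82.4% of the whole list. Of the 24 H3K56ac peaks, 16 overlapped an H3K4me3 peak (66.7%, interval 44.7 to 84.4), against 70.0% of the list. The H3K4me3 peaks with a partner had a median length of 894 bp and the 9 without one 279 bp. The whole list was not split by partner, so whether this difference is particular to SWEET genes is unknown. The edges could lie close together: at SWEET36 the upper edges were 4 bp apart and the lower edges 37 bp, and at the SWEET34 peak that crosses the end they were 8 and 12 bp apart. At SWEET29 H3K56ac was split under a continuous H3K4me3 peak, and at SWEET15 the H3K56ac peaks began 484 and 343 bp inside the lower edges of H3K4me3.

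Many SWEET genes had no close neighbour. No other annotated gene lay within 2 kb of 31 of 43 members (72.1%, interval 56.3 to 84.7), against 54.0% of all protein-coding genes. The median distance to the nearest protein-coding gene was 6.72 kb for members and 2.87 kb for all genes, while the median number of coding genes within 100 kb was 16 and 17. Among the 31 isolated members, H3K4me3 was at 10, H3K56ac at 6, H3K36me3 at 1 and no mark at 20 (32.3%, 19.4%, 3.23% and 64.5%). Among all protein-coding genes isolated in the same way the shares were 68.8%, 63.4%, 43.4% and 27.2%.

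The neighbours were counted by the same rules. The nearest coding gene had all 3 marks for 11 of 43 members (25.6%, interval 13.5 to 41.2), against 51.7% for all protein-coding genes, and none of the marks for 16 (37.2%, interval 23.0 to 53.3), against 21.7%. These counts include the family itself: the nearest coding gene was another SWEET gene for 11 members, and so were 8 of the 16 neighbours without a mark. With SWEET neighbours left out, a count added after the data were seen, the nearest coding gene had no mark for 8 of 32 members (25.0%, interval 11.5 to 43.4) and all 3 marks for 11 (34.4%, interval 18.6 to 53.2). The share without a mark was then near the 21.7% of all genes, and no test was made of these differences. For the 24 unmarked members the nearest coding gene had all 3 marks in 7 and none in 7, of which 4 were SWEET genes. None of the nearest coding neighbours of SWEET29, SWEET31, SWEET34 and SWEET42 had all 3 marks: at SWEET29 and SWEET31 they had none, at SWEET34 they had H3K4me3 and H3K56ac, and at SWEET42 H3K56ac alone.

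Within 20 kb of each other lay 7 successive pairs of SWEET genes, of which 5 differed in class and 2 were unmarked at both genes. Other neighbouring gene pairs were not counted in this way, so whether such differences are usual is unknown. SWEET15, SWEET16 and SWEET17 on chromosome 6, with gaps of 17.0 and 11.2 kb, went from H3K4me3 with H3K56ac, to H3K56ac alone outside the gene, to no mark. SWEET25 had H3K4me3 and SWEET26, 4.76 kb away, had none, and likewise SWEET46 had H3K4me3 where SWEET45, 7.54 kb away, had none. SWEET47 had both narrow marks at its ends, and SWEET48, 2.33 kb away, had them in its interior alone. In the pairs SWEET4 with SWEET5 and SWEET20 with SWEET21 both genes were unmarked. None of these 13 clustered genes had H3K36me3, which was infrequent in the whole family (9.30% of members, against 51.1% of all protein-coding genes). The family lay on 15 chromosomes, and all members on chromosomes 2, 5, 17 and 20 were unmarked. Those chromosomes hold only 1, 3, 1 and 2 members, and 55.8% of the whole family was unmarked.

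In the other transporter series of the gene table the shares with H3K4me3 were higher than in SWEET genes. Against 73.1% of all protein-coding genes, they were lower in ALMT (57.1%) and PHT1 (71.4%) and higher in the rest. All series but NRAMP had H3K36me3 less often than all protein-coding genes (51.1%). H3K4me3 was at 16 of 28 ALMT malate transporter genes, 21 of 24 PIP and 12 of 15 NIP aquaporin genes, 12 of 15 AMT ammonium transporter genes, 10 of 14 PHT1 phosphate transporter genes, 25 of 28 PIN and LAX auxin carrier genes and 10 of 12 NRAMP metal transporter genes. H3K36me3 was at 21.4%, 25.0%, 13.3%, 6.67%, 28.6%, 14.3% and 58.3% of these series in the same order, against 9.30% of SWEET genes. No mark was called at 39.3% of ALMT genes, the share nearest to the 55.8% of SWEET genes, and at 4.17% of PIP genes. Of all protein-coding genes, 22.2% had no mark. No test was made of these differences.

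**Figure D4:**
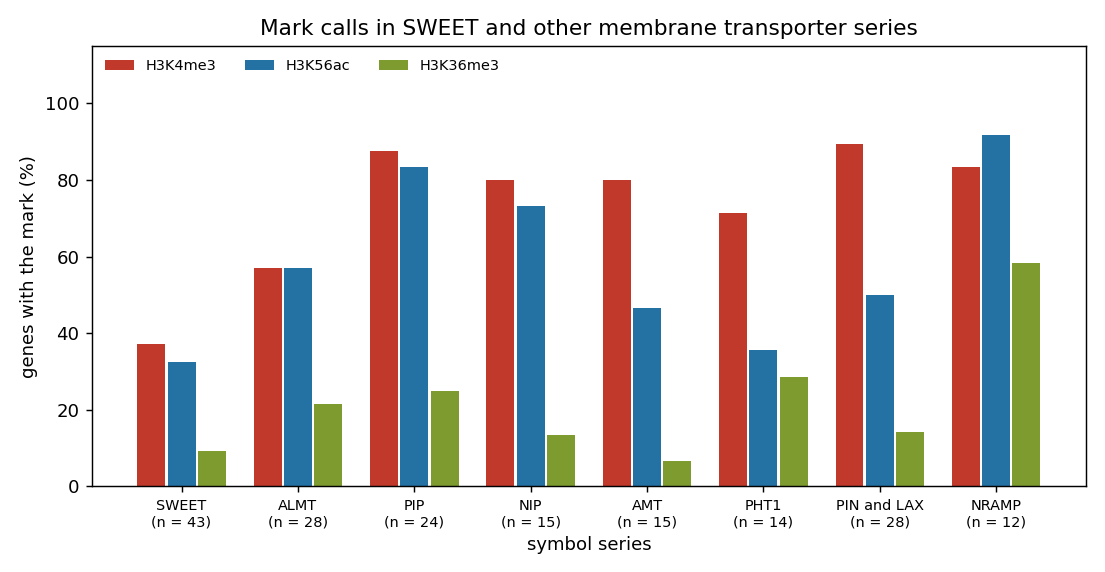
Share of genes, in percent, with H3K4me3 at an end (red), H3K56ac at an end (blue) and H3K36me3 in the body (green) in the SWEET genes and in 7 other symbol series of membrane transporters, with the number of genes under each name. SWEET genes have the lowest red bar, 37.2%, and the lowest blue bar, 32.6%, the latter close to that of PHT1 (35.7%). The green bar is lower in AMT (6.67%) than in SWEET (9.30%).

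Few other sugar genes carry a family symbol in this table, and 6 were matched. SUT1, a sucrose transporter gene of the type that loads the phloem, had 2095 bp of H3K4me3 and 1573 bp of H3K56ac without H3K36me3. The sugar transporter genes STP and STP1 had the same class, with 1863 and 1406 bp of H3K4me3. MST1, of the monosaccharide transporter series, had all 3 marks, with 56.4% of the gene under H3K36me3. The sucrose synthase gene SS had 1177 bp of H3K4me3 alone, and the cell wall invertase gene CWINV was unmarked. H3K4me3 was therefore at 5 of these 6 genes and H3K36me3 at 1, where 73.1% and 51.1% of all protein-coding genes had these marks.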

How the data were processed

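The files deposited by the authors are lists of peak positions, chromosome, start and end in bp, 1 list per library, with no height, p-value or read count. Per the submitters' processing notes, MACS2, SICER, Picard, Bowtie2 and Trimmomatic were used, with neither version nor role. Which caller made which list, its threshold, use of the input and the soybean build: not given in the sources used here. All H3K36me3 regions start and stop on 200 bp steps, and their ends were moved by 1 bp to count as in the other lists.

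Overlaps from 1 bp were computed in Python 3.11.15 (NumPy 2.4.6, pandas 2.3.3) and tested on simulated peaks. Shares have exact (Clopper-Pearson) 95% intervals (SciPy 1.17.1), for counting error only. With 1 library per mark no test was made between samples or gene groups. Members with all 3 marks, H3K36me3 or the 5 longest covered lengths of a narrow mark are given in full, the others by class. The members and gene lists were chosen with earlier results of these data known. No sequence was used, so the planned comparison of SWEET proteins was not run. The comparisons by length decile and with the middle of the members' lengths were added after the data were seen. Alternatives varied the window, peak length, overlap, neighbouring genes, isolation and place in the gene.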

Additional observations from a re-analysis of the deposited data

How the results depend on the processing

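Under 6 alternatives, 20 of 30 counts stayed within 1.5 times the reported ones. Some of these could not change. The 500 bp windows and the count anywhere in the gene act on the narrow marks alone. H3K36me3 in the body therefore stayed at 4 of 43 members under both, which is no check of that count. With the longer 50% of each list, H3K4me3 was at 9 of 43 members (20.9%, all genes 49.4%) and H3K56ac at 6 (14.0%, all genes 50.2%). H3K36me3 was then at 2 (4.65%, all genes 33.2%) and all 3 marks at 1, SWEET29 (2.33%, all genes 25.0%). With an overlap of 200 bp for the narrow marks and 50% of the gene for H3K36me3, H3K36me3 and all 3 marks were at 2 members, SWEET29 and SWEET34 (4.65%, all genes 39.1% and 38.0%). Among the 31 members with no other gene within 2 kb, H3K4me3 was at 10 (32.3%, isolated genes 68.8%) and H3K56ac at 6 (19.4%, isolated genes 63.4%). H3K36me3 and all 3 marks were at 1 of them, SWEET29 (3.23%, isolated genes 43.4% and 42.2%). These counts have a smaller base. The share with no mark ranged from 46.5% (20 of 43, narrow marks counted anywhere in the gene or within 1 kb; all genes 21.2%) to 79.1% (34 of 43, longer 50% of each list; all genes 38.8%), and was 64.5% (20 of 31) in isolated members. Leaving SWEET neighbours out, added after the data were seen, moved the neighbours without a mark from 16 of 43 to 8 of 32. In each of the 6 alternatives the members' share was below that of all genes for each mark and for all 3, and above it for no mark. For H3K36me3 the settings on windows and on place in the gene only repeat the reported shares. Depth is unknown and limits every absence of a call.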
